A study of Mus musculus with 15 samples.

Results

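The tumor necrosis factor (TNF) superfamily was examined in group 2 innate lymphoid cells (ILC2s) and their bone marrow (BM) precursors (ILC2p). Its members were taken as every gene whose symbol begins with Tnfsf (ligands) or Tnfrsf (receptors) followed by a number, which gave 31 of the 24690 entries in the files, 11 ligands and 20 receptors. None of the 31 shared an entry with another gene. Superfamily members with other symbols, such as Tnf, Ltb, Fas and Cd27, were kept apart as a separate list.

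Ligands of this family are mostly membrane proteins that act as trimers, and some are shed as soluble cytokines. Receptors either carry a death domain in the cytoplasm, through which they can trigger apoptosis or NF-κB, or bind TRAF adaptors and promote activation and survival. Decoy receptors bind ligand without signaling. ILC2s lack antigen receptors, and costimulatory receptors of this family, among them GITR (Tnfrsf18) and DR3 (Tnfrsf25), are known to enhance their cytokine production.

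RNA-seq was done on 15 libraries from C57BL/6 mice carrying floxed Tgfbr2 and the tamoxifen-inducible ER-cre. WT mice received sunflower oil and Tgfbr2-/- mice received tamoxifen (1 mg per day), each for 5 days, so the floxed alleles and the Cre were present in both genotypes, and tamoxifen itself cannot be told apart from loss of Tgfbr2. ILC2s came from the lamina propria (LP), where lineage-negative cells with Sca1, CD25, CD127 and KLRG1 were sorted 1 day after the last treatment (4 WT and 3 Tgfbr2-/- libraries). ILC2p (CD127+α4β7+CD25+) were sorted from the BM of irradiated CD45.1+ hosts 6 weeks after transfer of CD45.2+ BM from treated donors, mixed with normal CD45.1+ BM (4 libraries of each genotype). The lineage gate removed cells bearing CD11b or Gr-1. The mice treated were 8 to 12 weeks old at treatment. Each cell type was sequenced in 2 experiments that held both genotypes. Total counts on genes ran from 12167066 to 32114265 in ILC2 and from 10957021 to 35961215 in ILC2p. Nothing in the labels ties libraries to separate animals, so p-values measure the spread between these libraries, which may be partly technical.

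Below, values of a group follow the order of experiment 1 and then experiment 2. Levels are the deposited RPKM (read counts normalized to transcript length and library depth), which allow genes of different length to be compared. Fold changes and adjusted p-values are from edgeR's quasi-likelihood test on the counts, with Benjamini-Hochberg adjustment over all genes tested. A gene was called at an adjusted p under 0.1 and a fold change over 1.5.

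The labels were first checked. Tgfbr2 stood at 36.1, 57.9, 36.5 and 51.4 RPKM in WT ILC2s and at 49.1, 40.5 and 23.9 RPKM in Tgfbr2-/- ILC2s. In ILC2p it stood at 0.146, 59.1, 25.3 and 49.0 RPKM in WT and at 16.9, 26.3, 6.82 and 38.7 RPKM in Tgfbr2-/- cells. The genotypes overlapped in both cell types, and the counts cover the whole transcript, so this level did not separate the labelled genotypes. Gata3, the transcription factor that defines ILC2s, was at or above 797 RPKM in each of the 7 ILC2 libraries and at or above 893 RPKM in the 4 WT ILC2p libraries. It was at 345, 259, 296 and 507 RPKM in Tgfbr2-/- ILC2p.

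Some libraries stood apart. For each library, genes were taken whose median in the remaining libraries of that cell type reached 50 CPM (counts scaled to library size). Of these, 1.56% to 14.1% fell short of 1 CPM in single ILC2p libraries (median 6.00%), and at most 0.0286% did so in single ILC2 libraries. Of the members, 10 ranged from under 1 CPM to at least 10 CPM within the WT ILC2p libraries and 8 did so within the Tgfbr2-/- ILC2p libraries, against 2 in WT ILC2s and 0 in Tgfbr2-/- ILC2s. All 4 Tgfbr2-/- ILC2p libraries also held much RNA of neutrophil markers, as described with the ILC2p comparison. Whether a problem of sample or sort let this RNA past the CD11b and Gr-1 gate was not tested. That question bears on each genotype comparison of ILC2p below.

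The family was led by 1 receptor. Tnfrsf18 (GITR) was the most abundant member per length in all 15 libraries and made up between 29.9% and 69.5% of the summed RPKM of the 31 members. Its mean was 690.5 ± 99.8 RPKM (SD, n = 4) in WT ILC2s and 642 ± 135 RPKM (SD, n = 4) in WT ILC2p. Second in WT ILC2s was Tnfrsf25 (DR3, the receptor of TL1A) at 170.3 ± 72.6 RPKM (SD, n = 4), which lay below every Tnfrsf18 value and above every value of the next member. Next by mean came Tnfsf11 (RANK ligand) at 77.3 ± 18.2 RPKM (SD, n = 4), without overlap with Tnfrsf25 or with Tnfsf14, the next lower mean. Its lowest value (53.2 RPKM) lay below the highest of Tnfrsf1b (59.1 RPKM) and of Tnfrsf12a (54.7 RPKM). Below Tnfsf11 in mean, Tnfsf14 (LIGHT, 45.6 ± 7.09 RPKM, SD, n = 4) and Tnfrsf1b (TNFR2, 42.0 ± 13.2 RPKM, SD, n = 4) overlapped.

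In total 24 members reached 1 RPKM in at least 2 libraries of some group: 19 in WT ILC2s, 23 in Tgfbr2-/- ILC2s, 15 in WT ILC2p and 13 in Tgfbr2-/- ILC2p. Only Tnfrsf18, Tnfrsf25 and Tnfsf14 were at 1 RPKM or more in all 15 libraries. The other 7 members did not reach 1 RPKM in at least 2 libraries of any group. They were the ligands Tnfsf13 (APRIL), Tnfsf15 (TL1A) and Tnfsf18 (GITR ligand) and the receptors Tnfrsf8 (CD30), Tnfrsf11b (osteoprotegerin), Tnfrsf17 (BCMA) and Tnfrsf19 (TROY). The ligands of the 2 leading receptors were thus among the lowest members: Tnfsf18 had no read in any ILC2p library and at most 1.69 RPKM in ILC2s, and Tnfsf15 had no read in 13 of 15 libraries and at most 0.758 RPKM. Tnfsf13 was at 27.2 RPKM in replicate 2 of experiment 1 of Tgfbr2-/- ILC2p and at 3.86 RPKM in replicate 2 of experiment 2 of WT ILC2. Tnfrsf17 and Tnfrsf11b reached 1.05 and 1.03 RPKM in single ILC2 libraries. Of the 15 ligand-receptor pairs listed, both partners reached 1 RPKM in at least 2 libraries for 4 in WT ILC2s. These were Tnfsf9 and Tnfrsf9, Tnfsf10 and Tnfrsf10b, Tnfsf11 and Tnfrsf11a, and Tnfsf14 and Tnfrsf14.

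**Figure D1:**
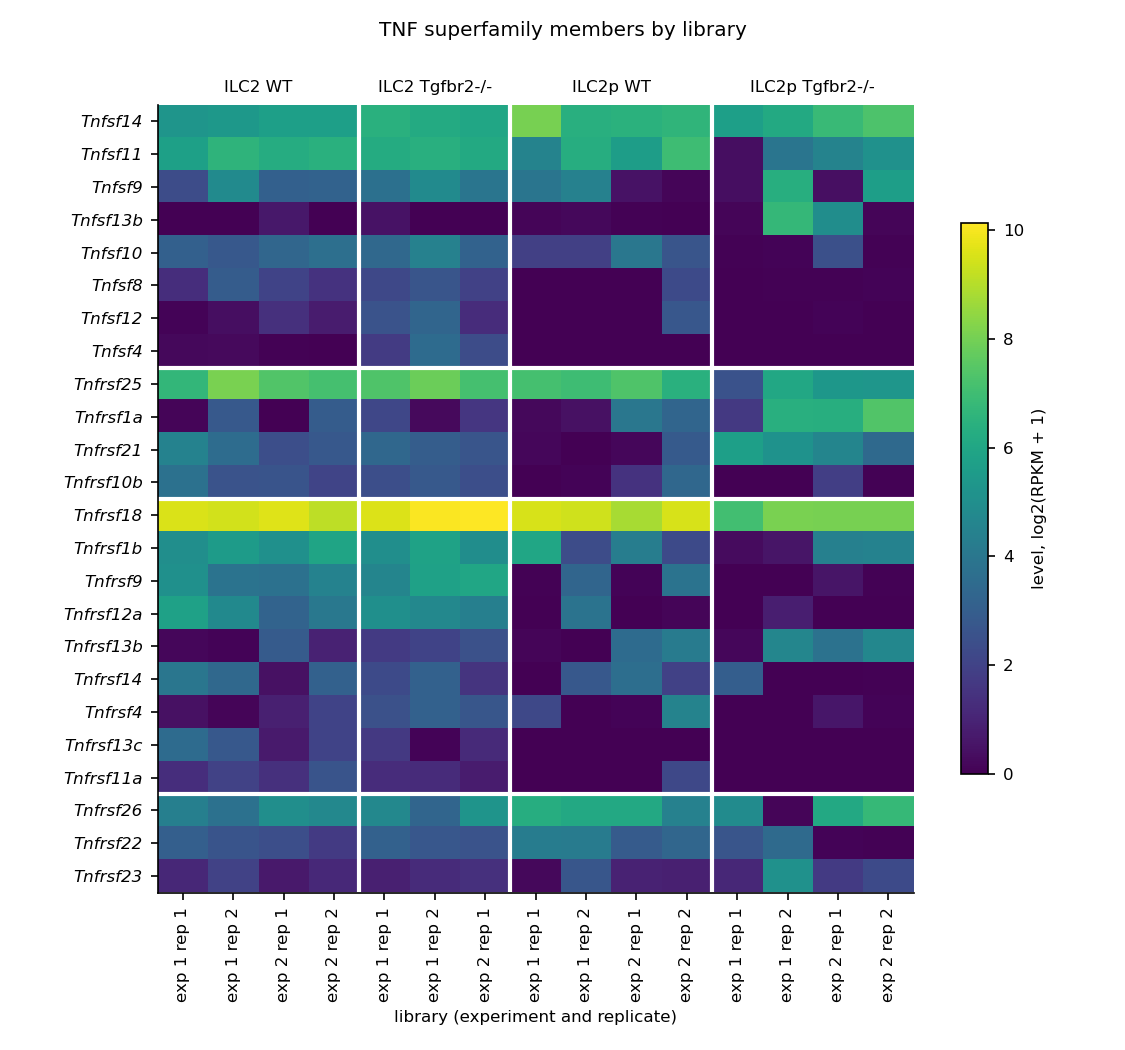
Level of each of the 24 members that reached 1 RPKM in at least 2 libraries of a group (vertical, by role: ligands, death-domain receptors, TRAF-binding receptors, decoy receptors) in each of the 15 libraries (horizontal), as log2(RPKM + 1). Tnfrsf18 is the brightest member in every library, and dark cells inside a group of ILC2p libraries mark members near 0 in single libraries.

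Of the 31 members, 9 lie on chromosome 4 (NCBIM37), where Tnfrsf18 and Tnfrsf4 (OX40) are neighbors 9.55 kb apart. Start-site windows are shown for these neighbors, for Tnfrsf9 (4-1BB) and for Tnfsf14, the ligand on chromosome 17 that was at 1 RPKM or more in every library. Each runs from 250 bases before to 50 bases after a RefSeq transcript start (GRCm38.p6), and 24 of the 31 members had an entry. Capitals mark matches, on either strand, to an AP-1 motif (TGANTCA), an NF-κB motif, a GATA motif (AGATAA) or a SMAD motif (CAGACA). The windows are chr4:156026072-156026371 (plus strand) for Tnfrsf18, chr4:156013445-156013744 (plus strand) for Tnfrsf4, chr4:150927749-150928048 (plus strand, the second of 2 starts) for Tnfrsf9 and chr17:57194132-57194431 (minus strand) for Tnfsf14.
Tnfrsf18: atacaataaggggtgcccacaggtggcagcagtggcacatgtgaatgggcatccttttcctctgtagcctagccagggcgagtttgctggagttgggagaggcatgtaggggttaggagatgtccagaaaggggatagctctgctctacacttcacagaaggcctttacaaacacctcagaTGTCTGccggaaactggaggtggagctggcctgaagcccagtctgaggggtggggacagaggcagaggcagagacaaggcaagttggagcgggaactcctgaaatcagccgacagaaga
Tnfrsf4: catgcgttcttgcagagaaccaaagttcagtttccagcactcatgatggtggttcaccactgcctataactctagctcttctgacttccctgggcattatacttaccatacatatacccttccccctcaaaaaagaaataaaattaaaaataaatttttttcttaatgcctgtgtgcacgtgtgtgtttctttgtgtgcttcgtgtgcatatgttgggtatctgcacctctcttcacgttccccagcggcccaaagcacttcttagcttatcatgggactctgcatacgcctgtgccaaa
Tnfrsf9: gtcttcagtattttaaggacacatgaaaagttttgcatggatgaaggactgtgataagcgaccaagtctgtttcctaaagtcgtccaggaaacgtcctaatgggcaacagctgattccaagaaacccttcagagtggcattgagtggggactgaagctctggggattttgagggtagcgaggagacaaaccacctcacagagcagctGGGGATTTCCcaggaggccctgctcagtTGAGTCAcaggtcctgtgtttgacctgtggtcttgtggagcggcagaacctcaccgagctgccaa
Tnfsf14: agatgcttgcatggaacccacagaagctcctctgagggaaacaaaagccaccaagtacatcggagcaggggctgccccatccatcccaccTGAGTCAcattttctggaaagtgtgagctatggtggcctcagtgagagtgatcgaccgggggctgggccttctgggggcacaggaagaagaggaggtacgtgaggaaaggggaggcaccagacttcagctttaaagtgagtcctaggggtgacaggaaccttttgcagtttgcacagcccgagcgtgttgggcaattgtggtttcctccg

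The Tnfrsf9 window held the NF-κB letters beginning 43 bases before the start and the AP-1 letters beginning 15 bases before it. The Tnfsf14 window held the AP-1 letters 160 bases before the start, and the Tnfrsf18 window the SMAD letters 69 bases before it. No match was found in the Tnfrsf4 window, nor in the window of the first Tnfrsf9 start, which is not shown. Among all 32851 windows of this length, 7.81% held the AP-1 letters, 1.63% the NF-κB letters, 11.2% the GATA letters and 21% the SMAD letters. Among the 28 windows of the members these letters were found in 6, 2, 1 and 6. A match describes these letters only.

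The first comparison asked how members differed between Tgfbr2-/- and WT ILC2s. None of the 24 members tested was called, among 0 of 11981 genes called (0%). At an unadjusted p under 0.05 there were 3 members (Tnfsf4, Tnfsf14 and Tnfrsf4), beside 557 genes (4.65%). DESeq2 called 1 member, Tnfsf4, which was higher, and 338 genes (2.82%), of which 269 were higher (2.25% of genes tested) and 69 lower (0.576%). The median log2 fold change was 0.01 over the 24 members and -0.01 over all genes tested. The members' median was 0.26 without replicate 1 and 0.24 without replicate 2 of experiment 1 of WT, 0.21 without replicate 1 of experiment 1 of Tgfbr2-/- ILC2, and from -0.04 to 0.08 without any other single library, so no direction is read from it.

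Among the ligands, Tnfsf4 (OX40 ligand), which costimulates T cells, showed the largest difference. It was at 0.173, 0.187, 0.0404 and 0 RPKM in WT ILC2s and at 2.39, 10.5 and 4.12 RPKM in Tgfbr2-/- ILC2s, which is 6, 6, 1 and 0 counts against 106, 526 and 78. All Tgfbr2-/- libraries lay above all WT libraries. The log2 fold change was 5.86 (SE 1.34), with an adjusted p of 0.877 by edgeR and 0.00376 by DESeq2, so the call depended on the tool. In the exact two-sided permutation of genotype within experiments the p was 0.0556, the smallest that the 18 arrangements allow. Over its alternatives the adjusted p ran from 0.00376 to 1, and the log2 fold change with 1 library left out from 5.05 to 6.48.

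Tnfrsf4, the receptor of OX40 ligand, went the same way. It stood at 0.362, 0.0869, 0.844 and 3.12 RPKM in WT ILC2s and at 4.71, 7.79 and 5.59 RPKM in Tgfbr2-/- ILC2s. The groups did not overlap, and the log2 fold change was 3.53 (SE 1.44, edgeR adjusted p = 0.898). Fasl (Fas ligand), a superfamily ligand outside the symbol rule, stood at 0.0739, 0.292, 1.93 and 0 RPKM in WT and at 3.25, 10.003 and 3.69 RPKM in Tgfbr2-/- ILC2s.

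Tnfsf14, a ligand that costimulates T cells through HVEM, was moderately abundant. It stood at 38.1, 41.0, 52.0 and 51.2 RPKM in WT ILC2s and at 84.7, 72.7 and 61.8 RPKM in Tgfbr2-/- ILC2s. Every Tgfbr2-/- value lay above every WT value, with a log2 fold change of 0.62 (SE 0.21, edgeR adjusted p = 0.898). Tnfsf12 (TWEAK) showed a log2 fold change of 3.72 (SE 1.90, edgeR adjusted p = 0.898). It was at 4.96, 8.96 and 1.42 RPKM in Tgfbr2-/- against 0.0648, 0.28, 1.63 and 0.685 RPKM in WT ILC2s, and the groups overlapped. The other ligands above 1 RPKM, Tnfsf8 (CD30 ligand), Tnfsf9 (4-1BB ligand), Tnfsf10 (TRAIL) and Tnfsf11, overlapped between genotypes.

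Among the receptors, Tnfrsf18 stood at 742, 686, 781 and 553 RPKM in WT ILC2s and at 765, 1054 and 1111 RPKM in Tgfbr2-/- ILC2s. The lowest Tgfbr2-/- library lay just under the highest WT library, and the log2 fold change was 0.43 (SE 0.21, edgeR adjusted p = 0.898). Tnfrsf9, an activation-induced costimulatory receptor, was at 32.9, 13.5, 12.5 and 21.3 RPKM in WT and at 23.0, 53.7 and 63.2 RPKM in Tgfbr2-/- cells. These groups overlapped by 1 library, with a log2 fold change of 1.14 (SE 0.50, edgeR adjusted p = 0.898). Tnfrsf25 was at 104, 272, 166 and 138 RPKM in WT and at 160.0, 227 and 141 RPKM in Tgfbr2-/- ILC2s, within the spread of WT libraries.

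On the lower side stood Tnfrsf13c, Tnfrsf11a and Tnfrsf14. Tnfrsf11a (RANK) was at 1.51, 3.01, 1.62 and 5.21 RPKM in WT and at 1.46, 1.38 and 0.711 RPKM in Tgfbr2-/- cells. Its values did not overlap, and the log2 fold change was -1.33 (SE 0.85, edgeR adjusted p = 0.898). Tnfrsf13c (the BAFF receptor of B cells) had a log2 fold change of -1.96 (SE 1.34) and Tnfrsf14 (HVEM) one of -1.15 (SE 1.14), with edgeR adjusted p-values of 0.898 and 0.914, and both overlapped between genotypes. The 7 measured B and plasma cell markers summed to 485, 433, 125 and 253 CPM in WT ILC2s and to 80.3, 99.7 and 117 CPM in Tgfbr2-/- ILC2s, with Igj or Cd79b as the most abundant and 1 to 3 of the 7 at 0. The sums did not overlap, and of the 6 genes tested 0 were called. Igj was at 388, 370, 44.2 and 167 CPM in WT and at 34.5, 27.0 and 39.2 CPM in Tgfbr2-/- ILC2s, without overlap, while the B cell receptor gene Cd79b was at 61.1, 30.4, 76.1 and 74.4 CPM in WT and at 37.4, 70.2 and 61.6 CPM in Tgfbr2-/- ILC2s, which overlapped. Their part in the level of Tnfrsf13c was not tested.

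Some markers of other cells moved with the members on the higher side. Of the NK cell and ILC1 list, Gzmb was at 1.08, 13.9, 0.0553 and 4.1 CPM in WT ILC2s and at 18.7, 55.8 and 27.3 CPM in Tgfbr2-/- ILC2s. Klrb1c was at 2.71, 3.94, 7.19 and 2.02 CPM in WT and at 17.8, 29.3 and 13.9 CPM in Tgfbr2-/- cells, again without overlap. Gzma, Prf1 and Tbx21 of that list overlapped between genotypes. The 6 genes of that list, led by Gzma in each ILC2 library and with 1 or 2 at 0, summed to 358, 230.4, 208 and 271 CPM in WT and to 268, 453 and 935 CPM in Tgfbr2-/- cells, which overlapped. The 6 epithelial markers, with 0 to 3 at 0 and Epcam, Agr2 or Krt8 the most abundant, summed to 6.64, 15.7, 219.6 and 399 CPM in WT and to 39.3, 33.8 and 864 CPM in Tgfbr2-/- ILC2s. They were apart within each experiment. The 7 measured monocyte, macrophage and dendritic cell markers, with 1 to 5 at 0, summed to 0.234, 3.85, 3.65 and 247 CPM in WT ILC2s. In Tgfbr2-/- ILC2s they summed to 10.3, 24.9 and 16.1 CPM, apart in experiment 1 and overlapping in experiment 2. From any of these lists, 0 genes were called. Their part in the levels of Tnfsf4, Tnfrsf4 and Fasl was not tested.

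Single libraries moved several of these values. Without the Tgfbr2-/- library of experiment 2, the log2 fold change was -0.78 for Tnfrsf11a, -3.02 for Tnfrsf13c, 0.60 for Tnfrsf9 and 0.23 for Tnfrsf18. It was -0.16 for Tnfrsf14 without replicate 2 of experiment 2 of WT, 2.38 for Tnfsf12 without replicate 1 of experiment 1 of WT, and -1.24 for Tnfrsf13c without replicate 2 of experiment 1 of Tgfbr2-/- ILC2.

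In CPM scaled by TMM (edgeR's library scaling), all Tgfbr2-/- libraries lay above all WT libraries within both experiments for 3 members (Tnfsf4, Tnfrsf4 and Tnfsf14) of the 24, against 7.21% of genes tested. They lay below for 1 member (Tnfrsf11a), against 5.37% of genes tested. In RPKM Tnfrsf18 was above within both experiments as well.

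**Figure D2:**
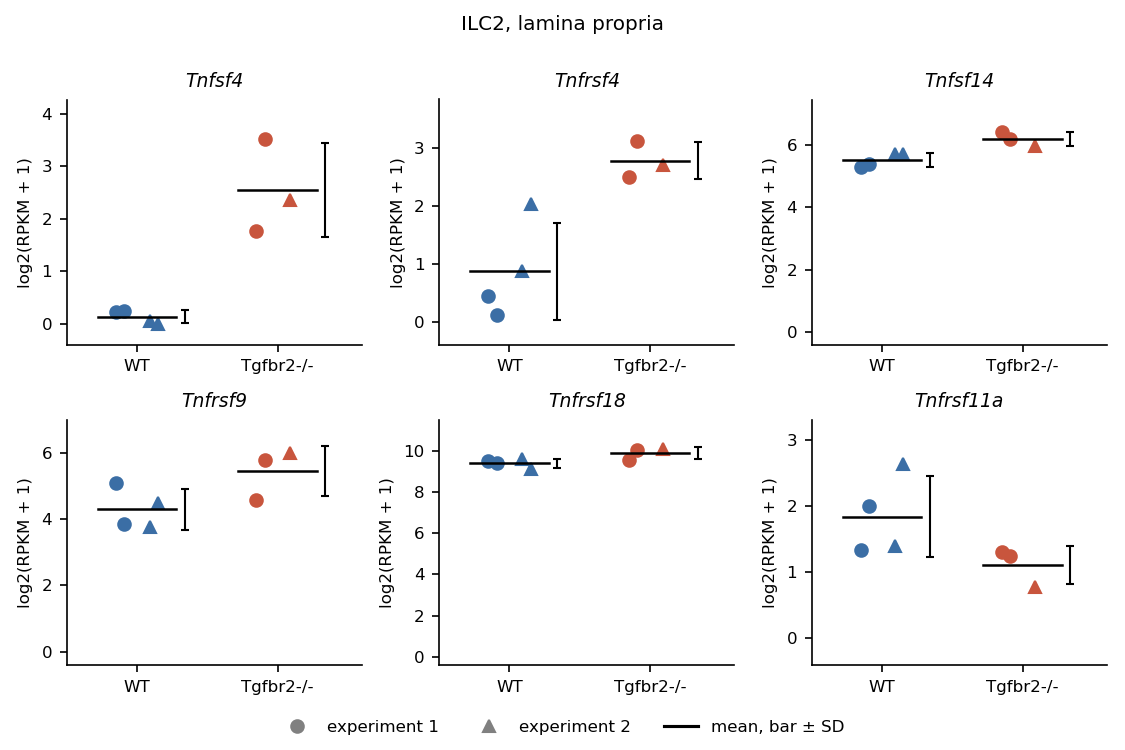
Level in log2(RPKM + 1) of 6 members in the 4 WT and 3 Tgfbr2-/- ILC2 libraries (circles, experiment 1; triangles, experiment 2), with the mean and SD of each group. Tnfsf4, Tnfrsf4 and Tnfsf14 are higher in each Tgfbr2-/- library than in any WT library, while Tnfrsf9 and Tnfrsf18 overlap.

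The second comparison asked the same of ILC2p, where only 14 members passed the filter on low counts. None of the 14 was called, beside 321 of 9242 genes (3.47%), of which 241 were higher (2.61% of genes tested) and 80 lower (0.866%). At an unadjusted p under 0.05 there were 3 members (Tnfrsf1a, Tnfrsf18 and Tnfrsf21), beside 897 genes (9.71%). DESeq2 called 5 members (higher: Tnfrsf1a, Tnfrsf21 and Tnfsf9; lower: Tnfrsf18 and Tnfrsf22) and 1229 genes (13.3%), of which 676 were higher (7.31% of genes tested) and 553 lower (5.98%). In bulk samples such as these, fewer cells of a type and less RNA per cell cannot be told apart.

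Markers of other cells moved with the genotype here. The 7 neutrophil markers of 8 listed that the files held summed to 781, 1545, 911 and 1459 CPM in WT ILC2p and to 88795, 73920.1, 73149 and 85155 CPM in Tgfbr2-/- ILC2p. The most abundant was S100a8 in each Tgfbr2-/- library and Mpo in each WT library, and none of the 7 was at 0 in any of these libraries. The monocyte, macrophage and dendritic cell list summed to at most 79.5 CPM in WT and at least 11160 CPM in Tgfbr2-/- ILC2p, with Lyz2 as the most abundant gene and 2 to 4 of its 7 genes at 0. The mast cell and basophil list summed to at most 297 CPM in WT and at least 1209 CPM in Tgfbr2-/- ILC2p. There Prss34 was the most abundant gene, and 4 of its 8 genes were at 0 in each library. The 6 NK cell and ILC1 markers summed to between 0.446 and 37.1 CPM in WT and between 54.7 and 292 CPM in Tgfbr2-/- ILC2p, with Klrb1c or Prf1 the most abundant in Tgfbr2-/- libraries and 2 to 4 genes at 0 there. The 7 measured B and plasma cell markers summed to 619, 6.01, 607 and 166 CPM in Tgfbr2-/- ILC2p and to at most 42.5 CPM in WT. Igj was the most abundant of them in the 2 highest libraries, and 3 to 5 were at 0 in the Tgfbr2-/- libraries. The 7 ILC2p markers summed to between 7415 and 12334 CPM in WT and between 3631 and 5687 CPM in Tgfbr2-/- ILC2p, with none at 0. Their part in the results below was not tested.

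Tnfrsf18 had the smallest standard error of the 14 members. It stood at 732, 668, 444 and 724 RPKM in WT ILC2p and at 133, 269.6, 266 and 262 RPKM in Tgfbr2-/- ILC2p. Every Tgfbr2-/- library lay below every WT library, with a log2 fold change of -1.24 (SE 0.35), an edgeR adjusted p of 0.149 and an exact permutation p of 0.0556, the smallest that the 36 arrangements allow. Gata3 had a log2 fold change of -1.41 (SE 0.31) in the same fit. When libraries were scaled to the summed counts of the 7 ILC2p markers, a scaling chosen after seeing the data that moved the median of all genes from -0.10 to 1.05, Tnfrsf18 had a log2 fold change of -0.11 (edgeR adjusted p = 0.890). It was called lower by DESeq2 (-1.12, adjusted p = 0.0942), and by edgeR with library size scaling (-1.46, adjusted p = 0.0688), with no experiment term (-1.25, adjusted p = 0.09997) and with at least 10 counts in every library (-1.35, adjusted p = 0.0662), where 4 members were tested. By edgeR 328 of 9242 genes were called with library size scaling, 347 of 9242 with no experiment term and 199 of 3629 with at least 10 counts.

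Tnfrsf25 followed the same order. It stood at 139.8, 124, 159 and 84.8 RPKM in WT and at 4.88, 67.0, 40.1 and 38.8 RPKM in Tgfbr2-/- ILC2p. The groups did not overlap, and the log2 fold change was -1.48 (SE 0.78, edgeR adjusted p = 0.675), or -0.30 scaled to the ILC2p markers. Tnfsf11 was at 22.1, 77.9, 48.2 and 126 RPKM in WT and at 0.283, 14.4, 22.0 and 34.1 RPKM in Tgfbr2-/- cells. Its groups were apart within each experiment but overlapped across experiments, with a log2 fold change of -1.90 (SE 1.11, edgeR adjusted p = 0.744). Tnfsf10 and Tnfrsf22, a mouse decoy receptor for TRAIL, had log2 fold changes of -3.55 (SE 1.90) and -3.90 (SE 2.23), with edgeR adjusted p-values of 0.693 and 0.730. Both were near 0 in some Tgfbr2-/- libraries and not in others. Tnfrsf23 is 90.6% identical to Tnfrsf22 over the aligned coding bases, so reads may be shared. It stood at 0.157, 5.46, 0.954 and 0.856 RPKM in WT and at 1.155, 33.8, 2.33 and 3.84 RPKM in Tgfbr2-/- ILC2p. Its groups overlapped, with the higher mean in Tgfbr2-/- cells.

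Tnfrsf1a (TNFR1), the broadly expressed death-domain receptor of TNF, was on the higher side. It stood at 0.159, 0.387, 15.02 and 8.95 RPKM in WT and at 2.22, 83.1, 79.9 and 165 RPKM in Tgfbr2-/- ILC2p. The groups were apart within each experiment, and the log2 fold change was 5.53 (SE 1.501, edgeR adjusted p = 0.128, exact permutation p = 0.0556). Tnfrsf21 (DR6), another death-domain receptor, was at 0.142, 0.0192, 0.131 and 6.33 RPKM in WT and at 51.0, 34.8, 23.3 and 9.85 RPKM in Tgfbr2-/- cells. No Tgfbr2-/- value fell within the WT range, and the log2 fold change was 5.79 (SE 2.32, edgeR adjusted p = 0.428, exact permutation p = 0.0556).

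Tnfrsf13b (TACI) had a log2 fold change of 3.91 (SE 2.94, edgeR adjusted p = 0.853), at 0.115, 0, 10.7 and 17.4 RPKM in WT and 0.12, 23.7, 13.2 and 25.0 RPKM in Tgfbr2-/- ILC2p. Its 3 lowest libraries were all of experiment 1. The log2 fold change of Tnfrsf13b was 2.29 or 2.16 without 1 or the other WT library of experiment 1 and 0.90 without replicate 2 of experiment 1 of Tgfbr2-/- ILC2p. Tnfsf13b (BAFF) did not pass the filter and reached 107 and 30.0 RPKM in 1 Tgfbr2-/- library of each experiment, against at most 0.164 RPKM in the other 6 ILC2p libraries. Tnfsf9 was at 14.5, 21.1, 0.412 and 0.0973 RPKM in WT and at 0.294, 79.6, 0.324 and 49.8 RPKM in Tgfbr2-/- cells, with high and low libraries in both genotypes.

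Tnfsf14 stayed abundant, at 260.0, 83.0, 86.3 and 97.5 RPKM in WT and at 51.9, 69.6, 115 and 155 RPKM in Tgfbr2-/- ILC2p. The groups overlapped, and the log2 fold change was -0.27 (SE 0.65, edgeR adjusted p = 0.968). Tnfrsf1b ranged from 3.83 to 62.6 RPKM in WT and from 0.239 to 21.3 RPKM in Tgfbr2-/- ILC2p, and Tnfrsf26, another decoy receptor, from 20.9 to 77.8 RPKM and from 0.1 to 109.9 RPKM.

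Single libraries moved some values here too. Without replicate 2 of experiment 1 of Tgfbr2-/- ILC2p, the log2 fold change was 3.52 for Tnfrsf1a, which was then called (edgeR adjusted p = 0.0858), and -2.39 for Tnfrsf25. In that run 244 of 10112 genes were called. Without replicate 1 of experiment 2 of that genotype it was -6.01 for Tnfsf10 and -2.43 for Tnfrsf22, and without replicate 2 of experiment 2 it was -2.42 for Tnfrsf22. Without replicate 2 of experiment 2 of WT ILC2p, Tnfrsf21 was called, with a log2 fold change of 8.24 (edgeR adjusted p = 0.0615), beside 185 of 9407 genes. Scaled to the ILC2p markers, Tnfrsf1a was called at 6.57 (edgeR adjusted p = 0.0462), beside 671 genes higher and 58 lower.

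In the same CPM, Tgfbr2-/- libraries lay above WT libraries within both experiments for 2 members (Tnfrsf1a and Tnfrsf21) of 14, against 8.05% of genes tested. They lay below for 4 (Tnfrsf18, Tnfrsf22, Tnfrsf25 and Tnfsf11), against 5.94% of genes tested. In RPKM Tnfsf10 was below within both experiments as well, whereas in CPM 1 Tgfbr2-/- library (21.8) lay just above the lower WT library of experiment 2 (21.2). The median log2 fold change was -0.84 over the 14 members and -0.10 over all genes tested. Scaled to the ILC2p markers, the medians were 0.31 over the 14 members and 1.05 over all genes, so the sign of the members' median turned while it stayed below that of all genes. It was -1.35 without replicate 2 of experiment 1 of WT, -1.34 without replicate 2 of experiment 1 of Tgfbr2-/- and -1.30 without replicate 1 of experiment 2 of WT ILC2p.

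**Figure D3:**
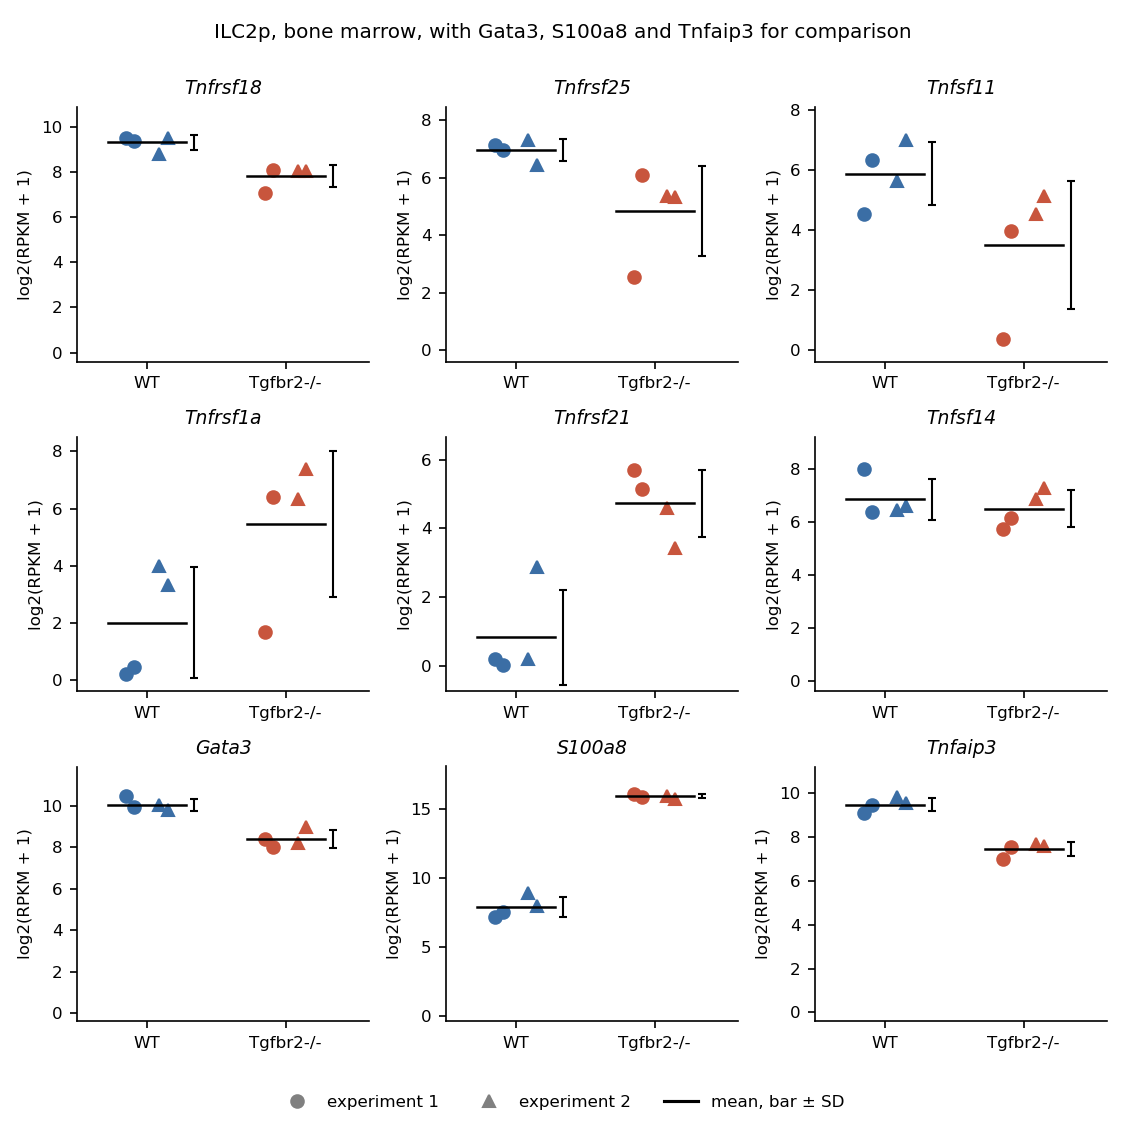
Level in log2(RPKM + 1) of 6 members, of the ILC2 transcription factor Gata3, of the neutrophil gene S100a8 and of the NF-κB inhibitor gene Tnfaip3 in the 4 WT and 4 Tgfbr2-/- ILC2p libraries (circles, experiment 1; triangles, experiment 2), with the mean and SD of each group. Tnfrsf18 and Gata3 are lower, and S100a8 higher, in each Tgfbr2-/- library than in any WT library.

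Among superfamily genes outside the symbol rule, 0 of 6 tested in ILC2p (3.47% of all genes were called) and 0 of 9 tested in ILC2 (0% of all genes) were called. At an unadjusted p under 0.05 by edgeR there were 4 of the 6 in ILC2p (66.7%), beside 9.71% of all genes, and 1 of the 9 in ILC2 (11.1%), beside 4.65%. The 4 were Fas, Ltbr and Tnf, which were on the higher side in Tgfbr2-/- ILC2p, and Ltb, which was on the lower side but turned to the higher side when scaled to the ILC2p markers. DESeq2 called Fas, Ltbr and Tnf in ILC2p, beside 13.3% of all genes, and none of the list in ILC2, beside 2.82%. When scaled to the ILC2p markers, edgeR called Fas, beside 729 of 9242 genes. Fas, a death receptor, was at 0.0578, 0, 0.171 and 0 RPKM in WT and at 38.7, 52.4, 7.82 and 21.4 RPKM in Tgfbr2-/- ILC2p, without overlap. Of the 25 adaptors, kinases and other signaling genes downstream of the receptors, 24 were tested in ILC2p and 1 was called, near the 3.47% of all genes. In ILC2, 25 were tested and 0 were called, as were 0% of all genes. The gene called in ILC2p was Tnfaip3 (A20), the ubiquitin-editing enzyme that restrains NF-κB signaling. It stood at 549, 689, 905 and 739 RPKM in WT and at 125, 186, 200.4 and 193 RPKM in Tgfbr2-/- ILC2p. It fell by 1.81 on the log2 scale (SE 0.19, edgeR adjusted p = 0.00104), and in each Tgfbr2-/- library it was lower than in any WT library. Scaled to the ILC2p markers, its log2 fold change was -0.67 (edgeR adjusted p = 0.163) and the call was lost.

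The third comparison tested whether the genotype effect differed between ILC2 and ILC2p. None of 25 members tested was called, beside 127 of 12806 genes (0.992%), of which 60 were higher (0.469% of genes tested) and 67 lower (0.523%). At an unadjusted p under 0.05 there were 8 members, beside 1555 genes (12.1%). DESeq2 called 6 members (Tnfrsf4, Tnfrsf9, Tnfrsf22, Tnfsf10, Tnfrsf1a and Tnfrsf21) and 1518 genes (11.9%), of which 907 were higher (7.08% of genes tested) and 611 lower (4.77%). The nearest to a call by edgeR was Tnfrsf18, with a difference of 1.67 on the log2 scale (SE 0.43, adjusted p = 0.120). Tnfrsf4 differed by 9.45 (SE 3.13, edgeR adjusted p = 0.217) and Tnfrsf9 by 7.17 (SE 2.45, edgeR adjusted p = 0.237), and each was above 1 RPKM in only 2 of the 8 ILC2p libraries, both WT. Tnfrsf1a differed by -6.35 (SE 2.65, edgeR adjusted p = 0.337) and Tnfrsf21 by -6.42 (SE 2.37, edgeR adjusted p = 0.271). Without replicate 2 of experiment 1 of WT ILC2, the Tnfrsf1a difference was -4.04. Under library size scaling 131 genes were called higher and 65 lower. Tnfrsf18 was then called (1.97, edgeR adjusted p = 0.0445), as it was with at least 10 counts in every library (1.80, edgeR adjusted p = 0.0303) and with no experiment term (1.68, edgeR adjusted p = 0.0804). With at least 10 counts 106 of 3533 genes were called, and with no experiment term 174 of 12806.

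Leaving out 1 ILC2p library of experiment 2 also brought member calls in this comparison. All genes called were then 124 without either WT replicate, and 407 without replicate 1 and 191 without replicate 2 of Tgfbr2-/-. In the main fit they were 127. Tnfrsf18 was called without replicate 1 of WT (1.85, edgeR adjusted p = 0.0936) and without replicate 1 or 2 of Tgfbr2-/- (1.68 and 1.80, edgeR adjusted p = 0.0972 and 0.0872). Tnfsf10 was called without replicate 1 of Tgfbr2-/- (6.54, edgeR adjusted p = 0.0461) and Tnfrsf21 without replicate 2 of WT (-8.90, edgeR adjusted p = 0.0168).

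Outside the symbol rule the difference was called for 2 genes. These were 1 of 9 other superfamily genes and 1 of 25 downstream signaling genes tested, beside 0.992% of all genes. Tnfaip3 stood at 1330.3, 1229, 1148 and 1141 RPKM in WT and at 1022, 1097 and 1131 RPKM in Tgfbr2-/- ILC2s, and its genotype effect was higher in ILC2 than in ILC2p by 1.56 on the log2 scale (SE 0.20, edgeR adjusted p = 0.00436). Ltb (lymphotoxin beta), which directs lymphoid tissue formation, was at 1196, 987, 906 and 797 RPKM in WT and at 1549, 1253 and 1862 RPKM in Tgfbr2-/- ILC2s. In ILC2p it was at 3120.0, 2471, 2014 and 1961 RPKM in WT and at 1225, 1362, 994 and 1219.8 RPKM in Tgfbr2-/- cells. Its log2 fold change was 0.59 (SE 0.22) in ILC2 and -0.75 (SE 0.21) in ILC2p, and neither was called (edgeR adjusted p = 0.898 and 0.149). With 1 library left out, the ILC2 value ran from 0.22 to 0.78. The difference was 1.33 (SE 0.32, edgeR adjusted p = 0.0952). The call was lost with DESeq2 (adjusted p = 0.206) and at an adjusted p under 0.05, among other settings. It was also lost without any of 10 single libraries (edgeR adjusted p from 0.107 to 0.462). The exceptions were replicate 1 of experiment 1 of WT ILC2, both experiment 1 replicates of WT ILC2p and both experiment 2 replicates of Tgfbr2-/- ILC2p. In the same fit the ILC2 and ILC2p marker lists had median differences of 1.03 and 1.01, and Gata3 one of 1.13. Scaled to the ILC2p markers, which moved the median of all genes from 0.31 to -0.59 and the calls to 50 higher and 242 lower, both calls were lost: the difference was 0.62 for Tnfaip3 (edgeR adjusted p = 0.277) and 0.40 for Ltb (edgeR adjusted p = 0.542). Tnfrsf18 then differed by 0.72 (edgeR adjusted p = 0.470).

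**Figure D4:**
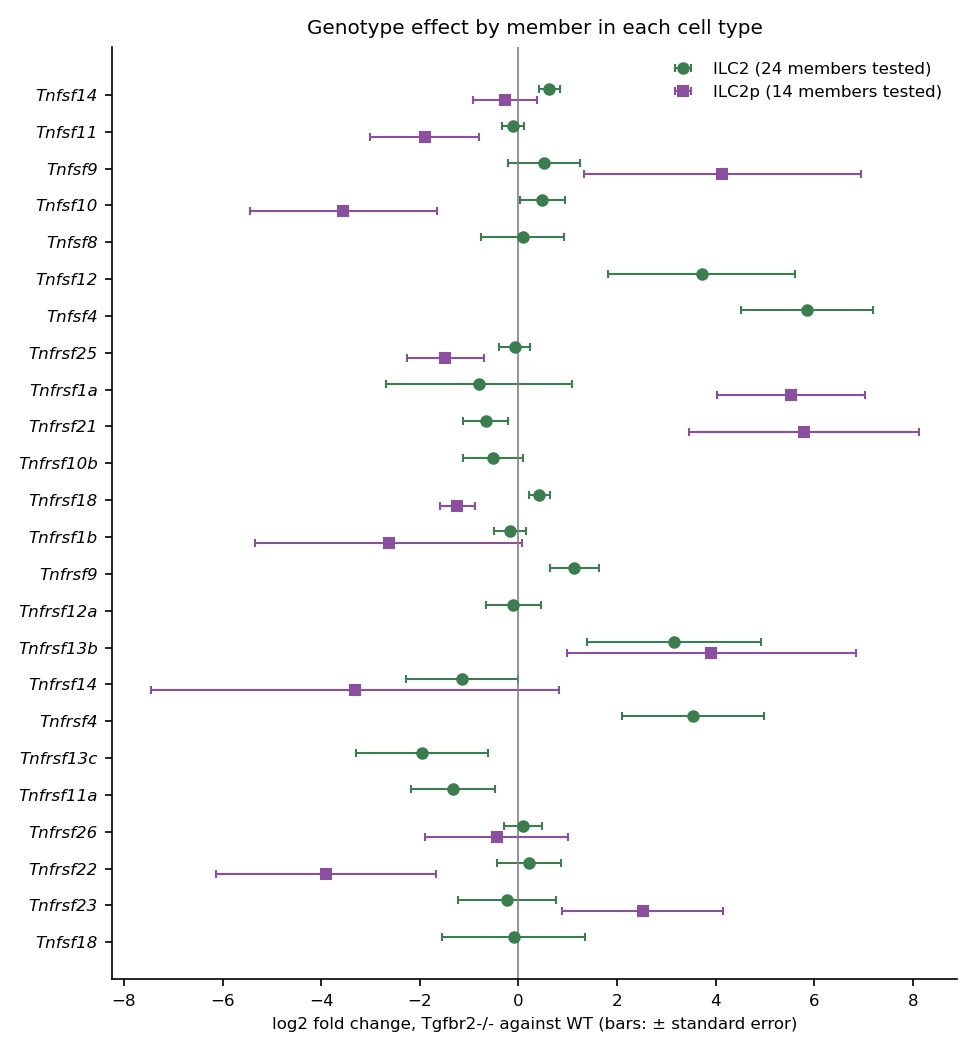
Log2 fold change of Tgfbr2-/- against WT with its standard error for each member tested in ILC2 (24, green circles) and ILC2p (14, purple squares), by edgeR. Tnfsf4 sits at 5.86 in ILC2 and was not tested in ILC2p, and Tnfrsf18 sits at 0.43 in ILC2 and at -1.24 in ILC2p.

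The last comparison set LP ILC2s against BM ILC2p in the 8 WT libraries. Tissue, mouse model, experiment and cell type cannot be told apart here. Of 21 members tested, 1 was called, Tnfrsf13c, which was higher in ILC2, beside 268 of 10468 genes (2.56%), of which 191 were higher (1.82% of genes tested) and 77 lower (0.736%). At an unadjusted p under 0.05 there were 3 members, beside 983 genes (9.39%). Without overlap between the cell types were 1 member that was higher in ILC2 (Tnfrsf13c, against 6.27% of genes tested) and 1 that was lower (Tnfsf14, against 4.11%). DESeq2 called 3 (Tnfrsf13c higher, Tnfsf14 and Tnfrsf26 lower in ILC2) and 604 genes (5.77%), of which 333 were higher (3.18% of genes tested) and 271 lower (2.59%). The median log2 fold change was 0.45 over the 21 members and -0.09 over all genes tested, and the members' median was 0.14 without replicate 2 of experiment 1 of WT ILC2. Without replicate 2 of experiment 2 of WT ILC2p, 4 members were called (Tnfrsf11a, Tnfsf8 and Tnfrsf21 higher and Tnfrsf26 lower in ILC2), and Tnfrsf13c was not. In that run 315 of 10848 genes were called, 244 higher and 71 lower in ILC2.

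Markers of other cells moved with this comparison as well. The 7 measured neutrophil markers summed to at most 3.65 CPM in WT ILC2s, where 5 to 7 of them were at 0, and to between 781 and 1545 CPM in WT ILC2p, where Mpo led and none was at 0. Of these, 6 were called lower in ILC2. The 8 mast cell and basophil markers summed to at most 5.52 CPM in WT ILC2s, with 6 to 8 at 0, and to between 111 and 297 CPM in WT ILC2p, with Cpa3 the most abundant and 4 at 0, and 2 of them were called lower in ILC2. The 6 NK cell and ILC1 markers summed to between 208 and 358 CPM in WT ILC2s, led by Gzma, and to between 0.446 and 37.1 CPM in WT ILC2p, with 1 to 5 at 0, and 1 was called higher in ILC2. The 7 T cell markers summed to between 70.0 and 151 CPM in WT ILC2s, with Cd28 or Cd3g the most abundant and 1 or 2 at 0, and to between 0.0892 and 55.7 CPM in WT ILC2p, with 1 to 6 at 0. These did not overlap, and of the 4 T cell markers tested 0 were called, with a median log2 difference of 4.70. Their part in the member differences was not tested.

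The leading receptors overlapped between the cell types. The log2 difference of ILC2 from ILC2p was 0.15 (SE 0.24, edgeR adjusted p = 0.959) for Tnfrsf18 and 0.45 (SE 0.37, edgeR adjusted p = 0.846) for Tnfrsf25. Single libraries moved both. For Tnfrsf18 the difference was 0.07 without replicate 1 of experiment 1 and 0.27 without replicate 2 of experiment 2 of ILC2, and 0.34 without replicate 1 of experiment 1 and 0.0046 without replicate 1 of experiment 2 of ILC2p. For Tnfrsf25 it was 0.08 without replicate 2 of experiment 1 of ILC2 and 0.29 without replicate 2 of experiment 2 of ILC2p. Tnfsf14 was lower in each WT ILC2 library than in any WT ILC2p library, with a log2 difference of -1.57 (SE 0.47, edgeR adjusted p = 0.195, DESeq2 adjusted p = 0.0382). It was also called when libraries were scaled to the ILC2p markers (edgeR adjusted p = 0.0819). Of the 7 genes used for that scaling, Rora was itself called higher in ILC2 (1.86, edgeR adjusted p = 0.000803). That run therefore cannot decide the Tnfsf14 difference. Without the highest ILC2p library the difference was -0.84. In Tgfbr2-/- libraries Tnfsf14 overlapped between cell types. Tnfrsf26 had a log2 difference of -1.41 (SE 0.49, edgeR adjusted p = 0.316) and overlapped.

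Tnfrsf13c was at 10.6, 5.87, 0.682 and 3.05 RPKM in WT ILC2s and had no read in the 4 WT or the 4 Tgfbr2-/- ILC2p libraries. Against a floor of 3 counts per library, its mean CPM was at least 61.8-fold higher in WT ILC2s (edgeR adjusted p = 0.0668), or at least 37.3-fold without replicate 1 of experiment 1 of WT ILC2s. Leaving out 1 library lost the call for 7 of the 8 libraries, every one except replicate 1 of experiment 1 of WT ILC2p, with adjusted p-values from 0.106 to 0.185. B and plasma cell markers moved with it: the 7 of 8 listed that the files held summed to 485, 433, 125 and 253 CPM in WT ILC2s and to 24.7, 42.5, 1.75 and 31.1 CPM in WT ILC2p. In WT ILC2s 2 or 3 of the 7 were at 0, and the most abundant was Igj in 3 libraries and Cd79b in the other. Of the 4 tested, 2 were called higher in ILC2 (Igj and Cd79a, edgeR adjusted p = 0.0151 and 0.0497). Their part in the level of Tnfrsf13c was not tested.

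Tnfrsf12a and Tnfrsf10b were above 3 RPKM in each WT ILC2 library and at 0 in at least 1 WT ILC2p library. Tnfrsf12a (Fn14, the TWEAK receptor) was at 54.7, 26.8, 8.33 and 15.7 RPKM in WT ILC2s and at 0, 13.6, 0 and 0.115 RPKM in WT ILC2p. Tnfrsf10b (the TRAIL receptor) was at 12.7, 5.07, 5.11 and 3.27 RPKM in WT ILC2s and at 0, 0.0656, 1.76 and 9.44 RPKM in WT ILC2p. Single ILC2p libraries reached the ILC2 range for each of them, and neither was called.

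Outside the symbol rule, Ltb was lower in ILC2 by a log2 difference of -1.27 (SE 0.26, edgeR adjusted p = 0.0475) and Tnfaip3 higher by 0.82 (SE 0.17, edgeR adjusted p = 0.0464), both without overlap in WT. They were 1 of 6 other superfamily genes and 1 of 25 downstream signaling genes tested, beside 2.56% of all genes. The Ltb call was lost without replicate 2 of experiment 1 of WT ILC2, either experiment 2 replicate of WT ILC2 or replicate 2 of experiment 1 of WT ILC2p (edgeR adjusted p from 0.130 to 0.143). The Tnfaip3 call was lost without either experiment 1 replicate of WT ILC2 or of WT ILC2p or replicate 1 of experiment 2 of WT ILC2 (edgeR adjusted p from 0.102 to 0.156), and scaled to the ILC2p markers (0.225). Since Rora, a gene of that scaling, was called between the cell types, the scaled run cannot decide the Tnfaip3 difference. In Tgfbr2-/- libraries the Ltb difference was 0.0058 (edgeR adjusted p = 0.996). In the same comparison of Tgfbr2-/- libraries, 8 of 24 members were called, beside 1575 of 11469 genes (13.7%). Tnfrsf18 was among them, higher in ILC2. Between these libraries the neutrophil markers summed to at most 1.3 CPM in ILC2, with 5 to 7 of the 7 at 0, and to at least 73149 CPM in ILC2p, where S100a8 was the most abundant. The ILC2p markers summed to between 7422 and 9321 CPM in Tgfbr2-/- ILC2 and between 3631 and 5687 CPM in Tgfbr2-/- ILC2p. The part of these shifts in the 8 calls was not tested.

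**Figure D5:**
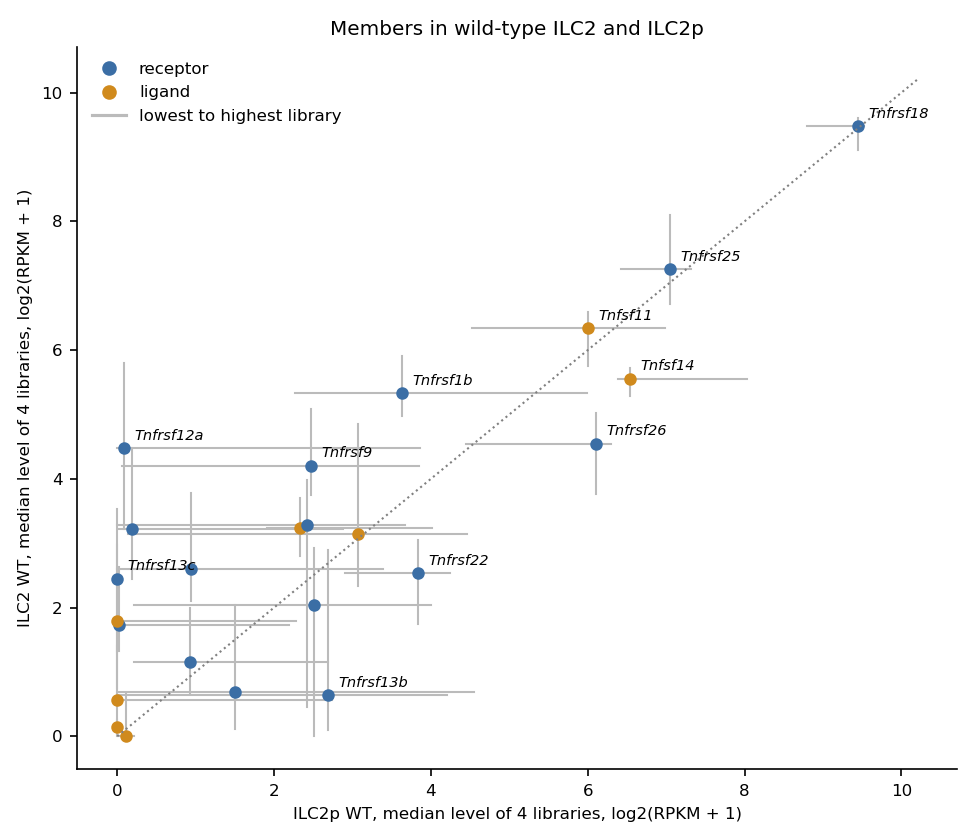
Median level of 24 members in WT ILC2p (x axis) and WT ILC2 (y axis), n = 4 libraries each, as log2(RPKM + 1), with lines from the lowest to the highest library. Tnfrsf18 and Tnfrsf25 lie near the dotted line of equal levels, Tnfsf14 to its right, and many lines reach 0 on the ILC2p axis.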

How the data were processed

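RNA from sorted LP ILC2s (7 libraries) and BM ILC2p (8 libraries) was sequenced. The authors aligned reads to mm9 by TopHat, allowing multiple hits (the submitters' processing notes name Bowtie2), and counted them on full RefSeq transcripts, leaving out regions where differently named genes overlap. Whether counting used strand is not given in the sources used here. The authors deposited raw read counts per gene, and beside them RPKM normalized to the reads given in each file's header. The counted length of Tnfsf13 (424 bases) and Tnfsf12 (717 bases) was below their coding lengths of 723 and 750 bases. The part of the overlap rule in this was not tested. Tnfrsf22 and Tnfrsf23 are 90.6% identical over 531 aligned coding bases, so reads may be shared, and values of these 4 members are uncertain.

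Counts were tested with edgeR 4.0.16 (R 4.3.3), using TMM scaling and filterByExpr, with the experiment as covariate in the genotype comparisons and none between cell types. Standard errors are the log2 fold change divided by the square root of F. CPM used the TMM factors. Genotype was permuted exactly within experiments on log2(CPM + 1). The alternatives tried were limma 3.58.1 fitted to log2(RPKM + 1), DESeq2 1.42.0, other scalings, filters and thresholds, and leaving out each library. A fit with no covariate was added where the main fit had one. In ILC2p a replicate block and each experiment alone were run, and in ILC2 the block and experiment 1 alone, both on experiment 1. Scaling to the ILC2p markers was added once values had been seen. The edgeR fits were checked on simulated counts, and DESeq2 was not.

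The members, lists and tests were chosen with earlier results of these data known. Named for their tests were called members and, in each genotype comparison, the 3 with the largest change in each direction among those on 1 side in both experiments. Outside the rule, called genes were named. Others (such as Tnfsf14, Tnfrsf9, Tnfrsf18 and Tnfrsf25, Tnfsf13b, Fas, Fasl, and all members named in the third comparison) were chosen after their values were seen. No 2 replicate libraries agreed within counting noise. Python 3.11.15, pandas 2.3.3 and matplotlib 3.10.9 were used. Promoter windows are RefSeq's (GRCm38.p6), and gene positions GENCODE's (NCBIM37). Flow cytometry and other experiments of the study were not analysed here.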

Additional observations from a re-analysis of the deposited data

Results flagged for a closer look

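Within groups of 4 libraries, 1 library lay far from the other 3 (Dixon's criterion on log2(CPM + 1)) in 14 of 72 groups tested. For normally distributed values chance flags about 1 in 20. In several flagged groups the other libraries were tied at 0, where a single read sets the flag. The count of flags therefore cannot be read against that rate. In WT ILC2p, replicate 2 of experiment 2 stood high for Tnfrsf11a (14.45 CPM), Tnfsf8 (6.957 CPM), Tnfsf12 (3.297 CPM) and Tnfrsf21 (18.59 CPM). Replicate 2 of experiment 1 stood high for Tnfrsf12a (10.05 CPM), and replicate 1 of experiment 1 for Tnfsf14 (504.7 CPM).

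In Tgfbr2-/- ILC2p, replicate 1 of experiment 2 stood high for Tnfsf10 (21.83 CPM), Tnfrsf10b (8.153 CPM), Tnfrsf9 (0.9342 CPM), Tnfrsf11a (0.08493 CPM) and Tnfsf12 (0.04246 CPM). Replicate 1 of experiment 1 stood high for Tnfrsf14 (6.938 CPM) and replicate 2 of experiment 1 for Tnfrsf12a (0.725 CPM). In WT ILC2s, replicate 1 of experiment 2 stood high for Tnfsf13b (0.8302 CPM). Of these 14, 13 were in ILC2p libraries. Values under 1 CPM rest on few counts.

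The genotype effect differed between ILC2 and ILC2p, by the edgeR interaction, for Ltb (1.333 on the log2 scale) and Tnfaip3 (1.561). The Tnfaip3 difference was called in each of 23 other settings and that of Ltb in 9 of 23. Scaled to the ILC2p markers, a setting added after seeing the data, neither was called (0.62 and 0.40 for Tnfaip3 and Ltb).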

How the results depend on the processing

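In ILC2, the count of 0 members called held in each alternative run except DESeq2 (1 member). In ILC2p, where 0 were called, DESeq2 called 5, no filter 2 (Tnfrsf1a and Tnfsf13b), limma 1 (Tnfrsf21), scaling to the ILC2p markers 1 (Tnfrsf1a), and library size scaling, at least 10 counts in every library and no experiment term 1 each (Tnfrsf18). Leaving out 1 library gave 0 to 1. For the difference between cell types, against 0, DESeq2 called 6, limma 2 (Tnfsf4 and Tnfrsf21), no filter 1 (Tnfrsf1a), and library size scaling, at least 10 counts and no experiment term 1 each (Tnfrsf18), and leaving out 1 library gave 0 to 2. Between cell types in WT, against 1, DESeq2 called 3, marker scaling 2, and limma, no filter, at least 10 counts and an adjusted p under 0.05 called 0. Tgfbr2-/- libraries gave 8. Leaving out 1 library gave 0 to 4, the 4 without replicate 2 of experiment 2 of WT ILC2p. The cause of these shifts was not tested. Tnfsf14 in ILC2p turned from -0.27 to 0.83 in experiment 2 alone and to 0.93 under marker scaling, and with 1 library left out ran from -0.60 to 0.46. Ltb between cell types turned to 0.0058 in Tgfbr2-/- libraries.

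The count of all genes called moved by more than 1.5 times in ILC2 (from 0) to 338 with DESeq2 and 3 with no filter. In ILC2p (from 321) it moved to 1229 with DESeq2, 199 with at least 10 counts, 38 and 77 in experiments 1 and 2 alone, 729 under marker scaling and as few as 179 without 1 library. For the difference (from 127) it moved to 1518 with DESeq2, 335 with limma, 196 with library size scaling, 259 with no filter, 68 at an adjusted p under 0.05, 292 under marker scaling and 14 to 407 without 1 library. Between cell types (from 268) it moved to 604 with DESeq2, 176 with no filter, 1575 in Tgfbr2-/- libraries and as few as 95 without 1 library.

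With the replicate block, 0 members were called in ILC2 and 0 in ILC2p, where 175 genes were called. Same-numbered libraries did not deviate together (r = -0.02 in ILC2, -0.01 and -0.04 in ILC2p), so the numbers do not pair libraries. Depth limits members with few counts, and in ILC2p many members were near 0 in single libraries.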

Other observations

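Of the superfamily genes outside the symbol rule, Cd70, Eda, Cd40, Ngfr, Edar and Eda2r were under 1 RPKM in every library, while Tnf and Ltbr varied widely between ILC2p libraries. Tnf, the inflammatory cytokine that names the family, stood at 52.1, 46.6, 52.2 and 69.1 RPKM in WT ILC2s and at 66.5, 47.2 and 41.0 RPKM in Tgfbr2-/- ILC2s. In ILC2p it stood at 0.107, 0.0433, 9.64 and 4.64 RPKM in WT and at 58.3, 74.4, 92.1 and 0.243 RPKM in Tgfbr2-/- cells, where 3 libraries lay above every WT library and 1 did not. Ltbr, the lymphotoxin receptor, was at 0, 0.233, 0.318 and 6.06 RPKM in WT and at 77.1, 41.9, 5.44 and 61.4 RPKM in Tgfbr2-/- ILC2p, with an overlap of 1 library. Neither was called in ILC2p by edgeR, and DESeq2 called both, beside 13.3% of all genes.

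Per Gata3 read, Tnfrsf18 gave 0.162, 0.209, 0.133 and 0.254 reads in WT and 0.121, 0.326, 0.281 and 0.162 reads in Tgfbr2-/- ILC2p, and these groups overlapped. Tnfsf14 gave 0.107, 0.0481, 0.0479 and 0.0635 reads per Gata3 read in WT and 0.0875, 0.156, 0.227 and 0.178 reads in Tgfbr2-/- ILC2p, where 3 of the 4 Tgfbr2-/- libraries lay above every WT library and 1 did not. Tnfrsf25 and Tnfsf11 overlapped between the genotypes on this measure. Of the ligand-receptor pairs, Tnfsf4 with Tnfrsf4 and Tnfsf12 with Tnfrsf12a reached 1 RPKM on both sides in at least 2 libraries of Tgfbr2-/- ILC2s but not of WT ILC2s.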
